A study of Mus musculus with 12 samples.

Results

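The response of normal adult mouse cardiomyocytes to swimming was followed in 6 of the 12 libraries of a study of desmin, the muscle intermediate filament protein. These were the 3 libraries labelled Des+/+ swim and the 3 labelled Des+/+ non-swim, and they were chosen by these labels alone. All 6 came from 3-month-old mice with both copies of the desmin gene, Des, and differed by label only in whether the mice had swum. The remaining 6 libraries came from Des-/- mice, which lack desmin, with and without swimming. Heart cells of every group were released by enzymatic perfusion with Trypsin and CollagenaseD and were collected directly afterwards. By the study's methods each library pooled cells of several mice, so a replicate here is a pool, and the spread between libraries is not that between single animals. How long and how often the mice swam, and how long before cell isolation, is not given in the sources used here.

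The heart draws most of its energy from fatty acids burned in mitochondria, and during exercise it receives adrenaline, glucocorticoid hormones from the adrenal gland, and higher wall stress and blood flow. Glucocorticoids enter cells, bind the receptor encoded by Nr3c1 and raise a small group of target genes quickly. Blood flow acts on the endothelial cells that line the vessels, and cardiac endothelium uses Notch, TGF-beta and nitric oxide signalling to keep vessels quiet and sized to demand. An enzymatic preparation of cardiomyocytes also carries some of these neighbouring cells.

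Between 7425291 and 12072443 reads were assigned to genes in the 6 libraries. Levels are given as CPM, a gene's counts scaled to its library's total, and 3 counts, taken as the floor, corresponded to at most 0.427 CPM. The cell type label was checked against 12 cardiomyocyte markers, all of which had reads in the 6 libraries. Their summed level was 60032, 95268 and 66330.3 CPM in the non-swim and 53220.4, 31283 and 43132 CPM in the swim libraries, listed as replicates 1 to 3 here and throughout. Each swim library thus lay below each non-swim library. The summed level of 17 endothelial markers was 15265, 13458 and 13503 CPM without and 15864, 21458 and 17658 CPM after swimming, and every swim library was higher. Fibroblast, mural and macrophage marker sums overlapped between the groups. Of 12 neutrophil markers 11 had reads, and the defining Ly6g had 0 in all 6 libraries. Their sum was low and overlapped, at 7.19, 3.16 and 2.80 CPM without and 8.03, 13.5 and 3.56 CPM after swimming. Of the 4 tested 3 were higher and 1 lower, with a median log2 change of 1.67, and 0 were called.

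**Figure D1:**
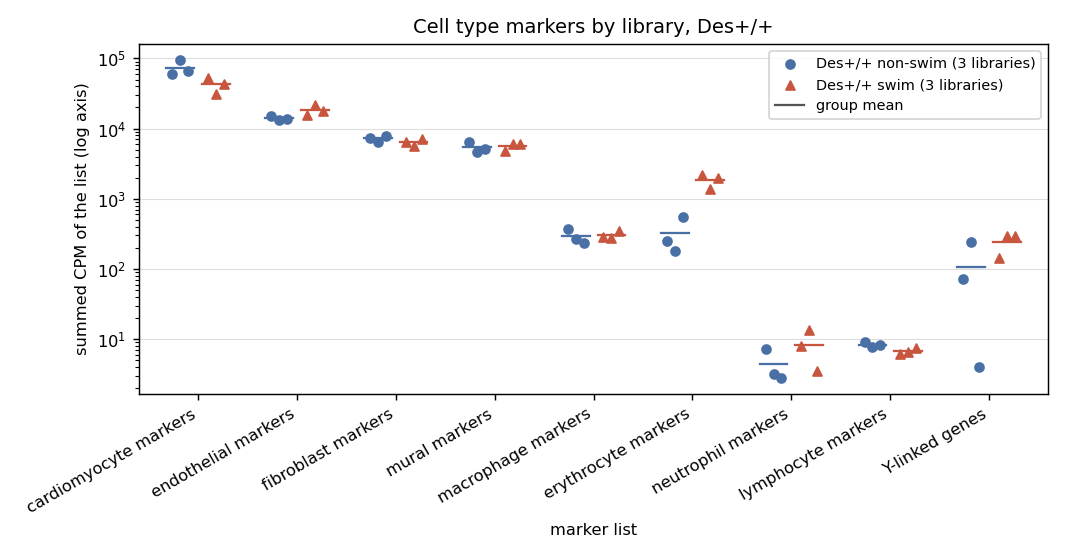
Summed CPM of each marker list (y axis, log scale) in the 3 Des+/+ non-swim (blue circles) and 3 Des+/+ swim libraries (red triangles), with group means as bars. The cardiomyocyte sums of the swim libraries, 31283 to 53220 CPM, lie below the non-swim range of 60032 to 95268 CPM, and for endothelial and erythrocyte markers each swim library lies above each non-swim library.

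Fewer cells of a type and less RNA per cell cannot be told apart in such bulk libraries. Desmin itself was at 1472, 3647 and 1982 CPM without and 1636, 973 and 1209.9 CPM after swimming, so the ranges overlapped (log2 change -0.90, edgeR adjusted p 0.154). The summed level of 4 Y-linked genes also overlapped, at 72.7, 245 and 4.06 CPM against 144, 292 and 291 CPM, which places non-swim replicate 3 far below the rest. Of the reads aligned to a single place, 36.4% ± 2.71 (SD, n = 3) fell in no annotated gene without and 47.8% ± 2.31 (SD, n = 3) after swimming. These ranges did not overlap, with an exact two-sided permutation p of 0.1, the smallest that 3 against 3 allows. The part of the marker sums, the Y-linked level and these reads in the gene changes below was not tested except where a covariate is named.

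Swimming was followed by higher levels of 12 genes by the test across all 12 libraries, in which the 4 groups share one estimate of spread. These were Pparg, Ercc1, Rin3, Nab2, Tinagl1, Rhbdf2, Trim25, Stx3, Pxn, Adgrg1, Cyb561 and Sh2b3, with increases between 1.82-fold and 3.15-fold. They were 0.0912% of 13158 genes tested (edgeR's quasi-likelihood test, adjusted p under 0.05), and 0 genes were called lower. At an unadjusted p under 0.05, 1113 genes were higher and 1584 lower, 20.5% of those tested. DESeq2 called 490 genes higher (3.72%) and 322 lower (2.45%), with all 12 among them. For each of the 12 genes the 3 swim libraries lay above the 3 non-swim libraries, as did those of 12.5% of all genes tested, with the reverse order in 18.7%.

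**Figure D2:**
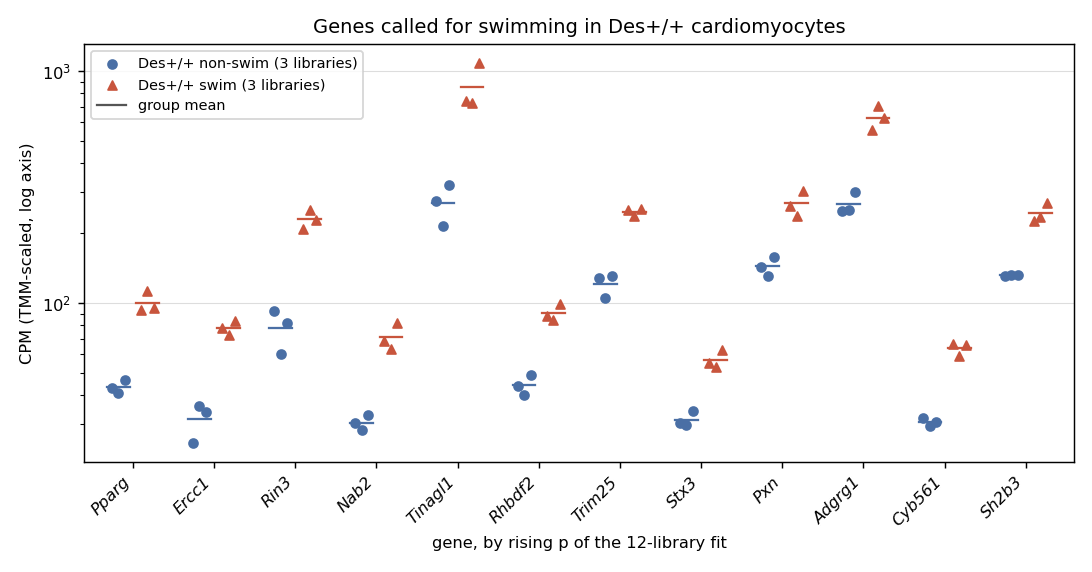
CPM (y axis, log scale) of the 12 genes called for swimming, ordered by p, in the 3 Des+/+ non-swim (blue circles) and 3 Des+/+ swim libraries (red triangles), with group means as bars. No swim library overlaps a non-swim library for any of the 12, and Tinagl1 reaches the highest level, 1082 CPM.

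A fit of the 6 Des+/+ libraries alone, which estimates the spread from these 6, called 282 of 12548 genes (2.25%). Of these, 227 were higher (1.81%) and 55 lower (0.438%) after swimming, all with no overlap between the groups, and the 12 genes above were among the 227. Below these are the 12-library and the 6-library fit. Folds and log2 changes are those of the 12-library fit unless the other is named, also where the adjusted p beside them is that of the 6-library fit. The 270 genes called in the 6-library fit alone had adjusted p-values of 0.0507 to 0.399 in the 12-library fit. The counts rested on every library. Without non-swim replicates 1, 2 and 3 in turn the 12-library fit called 2, 1 and 0 genes, and without swim replicates 1, 2 and 3 it called 3, 6 and 0. In the same order the 6-library fit called 0, 66 and 10 and then 72, 178 and 0. The balance of endothelial over cardiomyocyte markers did not overlap between the groups, at -3.46 to -2.62 without and -2.35 to -1.25 after swimming on the log2 scale. With this balance as a covariate, 0 genes were called by either fit (edgeR, 1144 and 1314 at an unadjusted p under 0.05), and the log2 changes of the 12 genes were then 0.84 to 1.54, against 0.86 to 1.66 without it.

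Rin3 (ENSMUSG00000044456, GRCm38 chromosome 12, 102283048 to 102390855, plus strand), which activates the small GTPase Rab5 in endocytosis, was at 92.5, 60.1 and 82.2 CPM without and 207, 252 and 227 CPM after swimming. Its log2 change was 1.55 (SE 0.18, edgeR adjusted p 0.00984). Tinagl1 (ENSMUSG00000028776, chromosome 4, 130164454 to 130175122, minus strand), a secreted protein of basement membranes, was at 275, 214 and 321 CPM without and 742, 729.9 and 1082 CPM after swimming, a log2 change of 1.66 (SE 0.22, adjusted p 0.0208). The means rose 2.92-fold and 3.15-fold, and the swim libraries of both genes stood far above the non-swim ones. Ercc1 (ENSMUSG00000003549, chromosome 7, 19344778 to 19356524, plus strand), a subunit of the nuclease of nucleotide excision repair, rose from 24.99, 35.996 and 33.9 CPM to 77.8, 72.9 and 83.2 CPM, a log2 change of 1.30 (SE 0.14, adjusted p 0.00920). When the 12 libraries were left out in turn it kept its call 10 times, most often of the 12 genes, with Rin3 called in 9 and Pparg in 8.

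Pparg (ENSMUSG00000000440, GRCm38 chromosome 6, 115360951 to 115490399, plus strand) encodes a nuclear receptor for fatty acids that drives lipid uptake and storage genes. Its level rose from 42.9, 40.8 and 46.6 CPM to 93.1, 113 and 95.2 CPM, a log2 change of 1.21 (SE 0.13, edgeR adjusted p 0.00920), with means of 43.4 ± 2.97 and 100.4 ± 10.9 CPM (SD, n = 3). The receptor is also an adipocyte marker, and the summed level of 10 adipocyte markers was 2533, 2212 and 2736 CPM without and 3481, 4479 and 3797 CPM after swimming, higher in each swim library. Of its 8 tested members 3 were higher and 5 lower, with a median log2 change of -0.87, the opposite sign. Most of the sum was Fabp4, a fatty acid carrier of endothelium and fat, at 2342, 1738 and 2372 CPM against 3163, 4259.6 and 3507 CPM. Adipoq, which defines adipocytes, was at 0.471, 0.117 and 5.23 CPM without and 1.42, 0.963 and 0.285 CPM after swimming, at most a few CPM and overlapping. Among the partners of Pparg, the coactivator Ppargc1a was at 68.005, 65.2 and 67.6 CPM without and 136, 106 and 263 CPM after swimming. These did not overlap, but the change was not called in either fit (adjusted p 0.176 and 0.0513). Over 31 energy regulators 14 genes were higher and 17 lower. Pparg was the one called by edgeR, which called 0.0912% of all genes over 12 and 2.25% over 6 libraries. DESeq2 called 1 higher over 12 libraries, against 3.72% of all genes. Over 6 libraries it called 4 higher and 4 lower, against 6.73% and 5.14%.

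Nab2 (ENSMUSG00000025402, GRCm38 chromosome 10, 127660918 to 127668568, minus strand), a corepressor of the EGR transcription factors, was at 30.3, 28.4 and 32.8 CPM without and 68.9, 63.02 and 81.5 CPM after swimming (log2 change 1.22, SE 0.15, edgeR adjusted p 0.0123). Adgrg1, an adhesion receptor that binds matrix, was at 249, 253 and 301 CPM and 556, 706 and 627 CPM (1.24, SE 0.18, adjusted p 0.0348). Pxn, the focal adhesion scaffold paxillin, was at 143, 130.1 and 158 CPM and 263, 238 and 305 CPM (0.90, SE 0.13, adjusted p 0.0341). In all 3 the lowest swim library stood well clear of the highest non-swim library. Sh2b3, an adaptor that dampens cytokine receptor signalling, varied little without swimming, with 130.4, 132 and 132 CPM in the non-swim libraries against 226, 234 and 270.1 CPM after swimming (0.89, SE 0.14, adjusted p 0.0400). The remaining 4 were Rhbdf2, which guides the shedding enzyme ADAM17 to the surface (1.03), the ubiquitin ligase Trim25 of innate antiviral signalling (1.03), the membrane fusion protein Stx3 (0.86) and the ascorbate-recycling electron carrier Cyb561 (1.05), with adjusted p-values of 0.0233, 0.0233, 0.0282 and 0.0348. Their calls and those of Pxn, Adgrg1 and Sh2b3 held in 3 to 5 of the 12 fits that left out a library.

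As these 12 genes rose together, the sequence around their transcription starts was examined, from 250 bases before to 50 after each RefSeq start (GRCm38.p6). Of the 12 genes 9 had such a window, 14 windows in all. The letters of an E-box, CACGTG, which clock factors among others bind, stood in 2 of the 14, at Trim25 and Sh2b3, in 9.73% of the windows of the genes tested and in 7.15% of all 32851 windows of the table. Those of an AP-1 site, TGANTCA with N for any base, also stood in 2, at Tinagl1 and Adgrg1, in 5.26% of the windows of the genes tested and in 7.81% of all windows. Both strands were searched, and the matches are in capitals in the 4 windows that hold them. The window of Trim25 also has 2 GC boxes in capitals, GGGCGG read on the other strand. The window of Trim25 on the plus strand (chr11:88999153-88999452) and that of Sh2b3 on the minus strand (chr5:121836055-121836354) hold the E-boxes, and those of Tinagl1 on the minus strand (chr4:130175073-130175372) and Adgrg1 on the plus strand (chr8:94984149-94984448) the AP-1 letters.
Trim25: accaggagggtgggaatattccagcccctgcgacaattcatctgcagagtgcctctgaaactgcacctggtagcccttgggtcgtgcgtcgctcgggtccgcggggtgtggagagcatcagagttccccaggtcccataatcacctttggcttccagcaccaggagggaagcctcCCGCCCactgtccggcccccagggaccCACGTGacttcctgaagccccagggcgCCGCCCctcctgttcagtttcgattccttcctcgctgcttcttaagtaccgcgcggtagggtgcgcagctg
Sh2b3: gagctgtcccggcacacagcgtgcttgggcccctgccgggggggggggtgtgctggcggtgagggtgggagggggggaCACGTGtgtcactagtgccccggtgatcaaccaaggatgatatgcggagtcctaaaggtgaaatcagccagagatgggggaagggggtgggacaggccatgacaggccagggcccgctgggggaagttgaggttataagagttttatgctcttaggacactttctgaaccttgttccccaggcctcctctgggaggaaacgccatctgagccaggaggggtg
Tinagl1: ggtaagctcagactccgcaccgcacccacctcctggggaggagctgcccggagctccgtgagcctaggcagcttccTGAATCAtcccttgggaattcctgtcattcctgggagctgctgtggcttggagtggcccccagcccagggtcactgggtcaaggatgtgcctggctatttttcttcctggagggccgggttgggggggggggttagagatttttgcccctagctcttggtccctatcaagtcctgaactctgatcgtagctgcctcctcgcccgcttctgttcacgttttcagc
Adgrg1: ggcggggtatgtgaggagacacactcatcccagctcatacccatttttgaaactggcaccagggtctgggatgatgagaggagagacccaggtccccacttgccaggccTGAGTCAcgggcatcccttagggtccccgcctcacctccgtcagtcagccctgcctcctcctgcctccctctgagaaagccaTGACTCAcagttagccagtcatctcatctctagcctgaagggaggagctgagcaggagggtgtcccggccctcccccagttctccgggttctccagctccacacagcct
GC boxes stood in 8 of the 14 windows, in 35.7% of all windows and in 61.2% of the windows of the genes tested. The full glucocorticoid receptor element was in 0 of the 14 windows and in 3 of all 32851. These are matches of letters and show neither binding nor its absence.

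The largest rises among genes called in the 6-library fit included the glucocorticoid target Fkbp5, the stress kinase Map3k6 and globin genes. Among genes called there, with a mean count of at least 20 in the higher group, the 12 largest increases included Fkbp5, Hbb-bs, Inhbb, Map3k6, Maff, Hba-a1, Alas2, Fam107a, Hba-a2, Tmem252 and Slc4a1, with 12-library log2 changes from 3.27 to 2.16. Fkbp5, a chaperone of the glucocorticoid receptor and itself a classical target of it, was at 28.4, 20.6 and 52.2 CPM without and 319, 141 and 523 CPM after swimming. The rise was 9.68-fold (adjusted p 0.0831 in the 12-library and 0.0218 in the 6-library fit), and the swim libraries, though widely spread, lay far above the non-swim ones. Map3k6, a stress kinase of the ASK family, rose from 29.7, 22.4 and 46.5 CPM to 208, 143 and 259 CPM (log2 2.62, 6-library adjusted p 0.0170). Fam107a, a stress-responsive actin-binding protein, rose from 33.4, 14.3 and 34.3 CPM to 174, 143 and 158 CPM (log2 2.53, 6-library adjusted p 0.0170). Maff, a small Maf transcription factor, rose from 32.1, 14.96 and 38.5 CPM to 105, 150.4 and 257 CPM (log2 2.58, 6-library adjusted p 0.0258). None of these 4 was called in the 12-library fit, where their adjusted p-values were 0.0831, 0.0570, 0.0570 and 0.0702.

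Glucocorticoid targets were mostly higher after swimming. Of the 22 glucocorticoid targets and receptors tested, 17 were higher and 5 lower after swimming. Without overlap between the groups 8 were higher and 0 lower, against 12.5% and 18.7% of all genes. Their median log2 change was 0.63, where that of all genes was -0.08 and 42.0% of all genes were higher. In the 6-library fit, which called 1.81% of all genes higher, 4 members rose: Fkbp5, Mt2, Mt1 and Cdkn1a. The metallothionein Mt2, which binds zinc and copper, was at 12.7, 11.8 and 11.5 CPM without and 60.7, 33.7 and 49.2 CPM after swimming (log2 2.00, 6-library adjusted p 0.0170). Its neighbour Mt1 was at 47.1, 68.02 and 77.1 CPM and 185, 106 and 129 CPM (log2 1.12, 6-library adjusted p 0.0430). Cdkn1a, the cell cycle inhibitor p21, was at 68.005, 45.7 and 68.3 CPM and 169, 133 and 289.6 CPM (log2 1.70, 6-library adjusted p 0.0314). All 3 showed every swim library above every non-swim library. In the 12-library fit their adjusted p-values were 0.190, 0.227 and 0.231, so no member was called there.

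The transcription factor Zbtb16 was at 53.7, 17.1 and 99.3 CPM without and 237, 217 and 198 CPM after swimming, without overlap and not called (6-library adjusted p 0.0657). Tsc22d3, the anti-inflammatory mediator GILZ, was at 134, 116 and 224 CPM and 336, 187 and 421 CPM, and swim replicate 2 lay within the non-swim range. The receptor gene Nr3c1 was at 228, 210.4 and 190.2 CPM and 167, 218 and 161 CPM, with overlap. The median of the list stayed between 0.41 and 0.77 over 22 other settings, which fit no covariate. With the cell marker balance as a covariate it was 0.59 over 12 and 1.04 over 6 libraries, and with the Y-linked level 0.38 over 12. In the Des-/- libraries, which share no library with this comparison, its median change with swimming was 0.57.

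**Figure D3:**
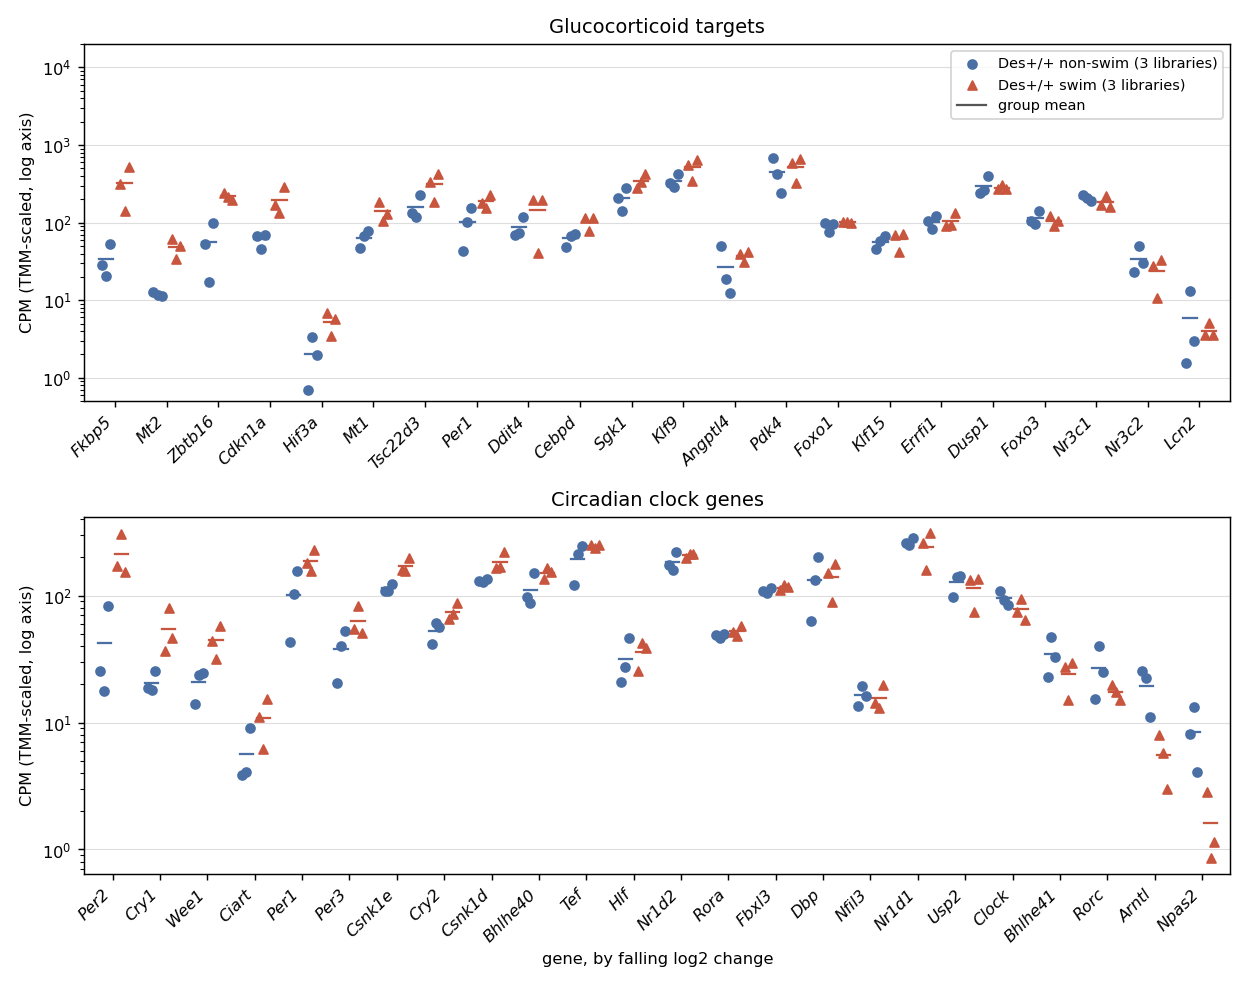
CPM (y axis, log scale) of every glucocorticoid target and receptor (upper panel) and circadian clock gene tested (lower panel), by falling log2 change, in the 3 Des+/+ non-swim (blue circles) and 3 Des+/+ swim libraries (red triangles), with group means as bars. Fkbp5 and Per2 lead their panels, and Arntl and Npas2 lie at the lower end with every swim library below every non-swim library.

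Of the circadian clock genes the repressors Per2 and Cry1 were higher and the activators Arntl and Npas2 lower in every swim library, but by edgeR Cry1 alone was called, in the 6-library fit. DESeq2 called 4 clock genes higher over 12 libraries, where it called 3.72% of all genes higher. Over 6 libraries it called 6 higher and 2 lower, against 6.73% and 5.14% of all genes. In this loop the factors Arntl (Bmal1), Clock and Npas2 turn on the Per and Cry genes, whose proteins then inhibit them. Per2 was at 25.3, 17.8 and 82.7 CPM without and 171, 308 and 154 CPM after swimming (log2 2.32, 6-library adjusted p 0.0581). Cry1 was at 18.6, 17.998 and 25.3 CPM and 36.7, 80.04 and 46.4 CPM, and it rose in the 6-library fit (log2 1.47, adjusted p 0.0430) with 1.40 in the 12-library fit (adjusted p 0.0852). Every swim library lay above every non-swim library for both repressor genes. Arntl was at 25.3, 22.3 and 11.01 CPM without and 7.91, 5.78 and 2.99 CPM after swimming (log2 -1.80, 6-library adjusted p 0.0585). Npas2 was at 8.13, 13.2 and 4.06 CPM and 2.83, 0.856 and 1.14 CPM (log2 -2.38, 6-library adjusted p 0.0616). For these activator genes every swim library lay below, without a call. The kinases Csnk1d and Csnk1e, which mark PER proteins for turnover, had log2 changes of 0.49 and 0.59 without overlap, also without a call (6-library adjusted p 0.0801 and 0.0561). Of 24 clock genes 16 were higher and 8 lower, 7 higher and 2 lower without overlap, against 12.5% and 18.7% of all genes. The list's median was 0.17, and it was 0.60 with the cell marker balance and 0.47 with the Y-linked level as a covariate over 12 libraries. With the Y-linked covariate Per2, Cry1, Arntl and Npas2 had adjusted p-values of 0.0185, 0.0310, 0.0310 and 0.0234 (edgeR). The clock time of isolation is not given in the sources used here, so time of day and swimming cannot be told apart.

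Immediate early genes, which respond within minutes to stimulation and also to cell isolation, were mixed. Of 49 genes of this kind 36 were higher and 13 lower, and the median was 0.38. Without overlap 12 were higher and 0 lower, against 12.5% and 18.7% of all genes. Maff and Mafk rose in the 6-library fit, Mafk from 96.998, 104 and 125 CPM to 173, 176 and 213 CPM (adjusted p 0.0373). The classical members Fos, at 164, 313 and 253 CPM without and 148, 120.3 and 194 CPM after swimming, and Egr1, at 239, 378 and 355 CPM and 195, 385 and 219 CPM, overlapped between the groups. The heat-inducible chaperone genes Hspa1a and Hspa1b were at 19.7, 6.19 and 39.2 CPM against 237, 69.6 and 55.4 CPM and at 32.5, 5.61 and 51.2 CPM against 297, 105 and 89.9 CPM. Every swim library of each was higher, but neither was called (6-library adjusted p 0.0777 and 0.0811), and the near-identical copies make the split of reads between them uncertain. With the cell marker balance as a covariate the median of the list was -0.22 over 12 and 0.50 over 6 libraries, and with the Y-linked level -0.05 over 12, so its sign depended on the fit.

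The Notch receptors of endothelium were higher after swimming, beside the higher endothelial markers. Of 46 Notch pathway genes 33 were higher and 13 lower, 10 and 3 of them without overlap, against 12.5% and 18.7% of all genes. Their median was 0.15, and 0.06 with the cell marker balance as a covariate. The receptor Notch1 was at 240.4, 248 and 259.8 CPM without and 426, 416 and 423 CPM after swimming. The log2 change was 0.83 in the 6-library fit, where it was called (adjusted p 0.0286), and 0.76 in the 12-library fit, where it was not (0.0627), and the swim libraries lay very close together. Notch4, a receptor found mainly on endothelium, was at 251, 218 and 274 CPM and 392, 506 and 460.5 CPM (log2 0.87, 6-library adjusted p 0.0363). The ligand Jag2 was at 222, 225 and 271 CPM and 477, 416 and 593 CPM (log2 1.05, 6-library adjusted p 0.0293). Both rose in the 6-library fit alone, with every swim library above the non-swim ones. The target and feedback inhibitor Nrarp was at 91.2, 50.7 and 94.1 CPM and 142, 155 and 168 CPM, without overlap and not called (6-library adjusted p 0.0561). Notch2, at 33.2, 36.3 and 36.4 CPM and 33.4, 27.8 and 28.3 CPM, and Notch3, a receptor of mural cells, at 226, 226 and 198 CPM and 189, 249 and 226 CPM, overlapped between the groups. With the cell marker balance as a covariate the log2 changes of Notch1, Notch4 and Jag2 were 0.92, 0.84 and 1.24, without a call (edgeR adjusted p 0.313, 0.431 and 0.427).

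Among 17 endothelial markers 14 were higher and 3 lower, and the median log2 change was 0.50. Without overlap 11 were higher and 0 lower, against 12.5% and 18.7% of all genes. The guidance receptor Robo4, which stabilises vessels, rose in the 6-library fit from 256, 205 and 248 CPM to 366, 419.9 and 393 CPM (adjusted p 0.0413). The endothelial transcription factor Sox18 rose there from 284, 198 and 247 CPM to 401, 446 and 458 CPM (adjusted p 0.0413). The junction marker Cdh5 was at 1252, 1162 and 1126 CPM without and 1346, 1619 and 1615 CPM after swimming, with a log2 change of 0.37. The junction genes Pecam1 and Esam had log2 changes of 0.57 and 0.89. All 3 lay higher in every swim library, without a call. The part of a changed share of endothelial cells in the Notch and vascular values was not tested beyond the covariate.

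Nos3, the endothelial nitric oxide synthase, rose in the 6-library fit from 207, 178 and 250.5 CPM to 351, 332 and 438 CPM (log2 0.82, adjusted p 0.0478). Of the 44 angiogenic and hypoxia genes that include it 25 were higher and 19 lower. The vessel growth factor Vegfa was at 209, 186 and 296 CPM without and 173, 182 and 138 CPM after swimming, lower in each swim library and not called (6-library adjusted p 0.242). Pdgfb, which recruits pericytes to endothelium, was at 227, 221 and 257 CPM and 354, 518 and 343 CPM, without overlap and not called (adjusted p 0.0581).

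TGF-beta and BMP genes stood with 16 of 36 members higher and 3 lower without overlap, against 12.5% and 18.7% of all genes, and a median of 0.26. The ligand Tgfb1 rose in the 6-library fit from 99.1, 80.8 and 101 CPM to 141, 149 and 149 CPM (log2 0.65, adjusted p 0.0430). Inhbb, the beta chain of activin B, rose from 11.9, 8.65 and 10.6 CPM to 39.1, 30.4 and 129 CPM (log2 2.66, adjusted p 0.0407), and swim replicate 3 carried most of its size. The endothelial receptor Acvrl1 had a log2 change of 0.64, and the target Id1 one of 0.90, both without overlap and without a call (6-library adjusted p 0.0677 and 0.0512). Timp3, an inhibitor of matrix proteases, rose in the 6-library fit from 994, 761 and 1242 CPM to 2450.2, 2507 and 3752 CPM (log2 1.54, adjusted p 0.0299) and just missed in the 12-library fit, at 0.0507. Among 40 interstitial matrix genes Col14a1, a fibroblast collagen, fell from 51.9, 49.6 and 59.1 CPM to 31.2, 17.9 and 20.5 CPM (6-library adjusted p 0.0377), and 9 genes were lower and 3 higher without overlap, near the 18.7% of all genes for the lower ones and below the 12.5% for the higher.

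Erythrocyte genes were several times higher after swimming, with a median log2 change of 2.47. The summed level of 7 such markers was 249, 179.5 and 547 CPM without and 2180.0, 1394 and 2006 CPM after swimming, and every swim library lay far above the non-swim libraries. All 6 that were tested were higher without overlap, against 12.5% of all genes, and 5 rose in the 6-library fit, against 1.81% of all genes. The globin Hbb-bs was at 109, 64.7 and 198 CPM without and 1039.9, 627 and 929 CPM after swimming (log2 2.80, adjusted p 0.0207). Alas2, which starts haem synthesis in red cells, was at 8.84, 5.96 and 14.3 CPM and 69.2, 39.2 and 62.2 CPM (log2 2.53, adjusted p 0.0205). The red cell anion exchanger Slc4a1 was at 0.943, 0.351 and 1.17 CPM and 4.72, 3.32 and 3.27 CPM (log2 2.16, adjusted p 0.0467), a few reads per library without swimming. None was called in the 12-library fit, where the adjusted p-values ran from 0.0885 to 0.196. The globin copies Hba-a1 and Hba-a2, with log2 changes of 2.54 and 2.41, are near-identical, so reads may be divided between them arbitrarily. The median was 2.39 with the cell marker balance as a covariate. In Des-/- libraries the same genes had a median of -1.22 with swimming, the opposite sign.

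Of 33 cell death and survival genes 24 were higher and 9 lower, 11 and 1 without overlap, against 12.5% and 18.7% of all genes. The death receptor Fas rose in the 6-library fit from 42.5, 39.97 and 46.4 CPM to 83.9, 110.3 and 101 CPM (log2 1.20, adjusted p 0.0170). Bcl2l1, whose main product Bcl-xL protects from apoptosis, rose there from 77.3, 93.3 and 132 CPM to 299, 193 and 390.5 CPM (log2 1.54, adjusted p 0.0343). A gene that promotes and a gene that restrains death thus both rose. Ucp2, a carrier of the inner mitochondrial membrane, rose from 163, 103 and 138 CPM to 319.8, 229.9 and 548 CPM (log2 1.44, 6-library adjusted p 0.0478). Of 37 antioxidant genes 23 were nevertheless lower, and catalase, Cat, was at 213, 423 and 237 CPM without and 162, 139 and 179 CPM after swimming, lower in each swim library and not called (0.101). Eif2ak4, the amino acid sensor GCN2, had a log2 change of 1.00 and the histone demethylase Kdm6b one of 0.88, both rises of the 6-library fit (adjusted p 0.0210 and 0.0210).

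Contractile genes were lower after swimming, beside the lower cardiomyocyte markers. All 37 sarcomere genes were lower, 18 without overlap, against 18.7% of all genes, and the median log2 change was -0.76. In the 6-library fit, which called 0.438% of all genes lower, 3 fell. Tmod1, which caps thin filaments, fell from 352, 418 and 313 CPM to 211, 154 and 207 CPM (adjusted p 0.0460). The thin filament proteins Nebl and Neb had log2 changes of -0.85 and -1.15 (adjusted p 0.0461 and 0.0461). The main adult myosin, Myh6, was at 20572, 37188 and 20721 CPM without and 19082, 9620.4 and 13731 CPM after swimming. Cardiac actin, Actc1, was at 9051, 11065 and 8129.5 CPM and 4189.6, 4366 and 5948 CPM. Neither gene overlapped between the groups and neither was called (6-library adjusted p 0.185 and 0.0735). With the cell marker balance as a covariate the sarcomere median was 0.35 over 12 and 0.21 over 6 libraries, of the opposite sign. The cardiomyocyte markers of that balance include contractile genes such as Myh6 and Actc1. The covariate thus partly takes out the change of these genes themselves, and the shift cannot show its source.

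Calcium handling genes followed the same direction, with 43 of 49 lower, 30 without overlap, against 18.7% of all genes, and a median of -0.80. With the cell marker balance as a covariate this median was 0.08 over 12 and -0.13 over 6 libraries. Ryr2 is itself a marker in that balance. Casq2, which stores calcium in the sarcoplasmic reticulum, fell in the 6-library fit from 872, 989 and 836 CPM to 501, 438 and 516 CPM (log2 -0.82, adjusted p 0.0407), with -0.89 in the 12-library fit (adjusted p 0.196). The calcium pump Atp2a2 was at 14372, 17586 and 12858 CPM and 6986, 5510.5 and 8716 CPM, and the release channel Ryr2 at 1515, 1815 and 1155 CPM and 963, 638 and 944 CPM. Each swim library of both was lower, without a call (6-library adjusted p 0.0675 and 0.0967). Against this direction the potassium channel Kcna5 rose in the 6-library fit, from 145, 108 and 157 CPM to 243, 286 and 336 CPM (log2 1.08, adjusted p 0.0327), and was 0.93 with the covariate. Gja1, the gap junction protein connexin 43, fell from 545, 569 and 486 CPM to 229, 283 and 207 CPM (log2 -1.15, 6-library adjusted p 0.0259), and was -0.73 with the covariate. By edgeR it was the one gene called among 41 of the intercalated disc and costamere, where the 6-library fit called 2.25% of all genes. DESeq2 called 2 of the 41 higher and 5 lower over 12 libraries, against 3.72% and 2.45% of all genes. Over 6 libraries it called 4 and 17, against 6.73% and 5.14%. Of the 41, 20 were lower and 8 higher without overlap, against 18.7% and 12.5% of all genes. The log2 change of Casq2 was -0.04 with the covariate. With it none of Kcna5, Gja1 and Casq2 was called (edgeR adjusted p 0.716, 0.574 and 0.983).

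The largest falls among genes called in the 6-library fit, by the same rule as above, were Myl7, Acta1, Retnla, Edn3, Spon2, 6430571L13Rik, Itgb6, Ces1d, Slc22a3, Prox1, B3galt2 and Cacna1s, with 12-library log2 changes from -3.55 to -1.46. Skeletal actin, Acta1, which the stressed heart is known to re-express, was at 618, 3152 and 572 CPM without and 222, 82.9 and 97.3 CPM after swimming. Non-swim replicate 2 stood far above the rest, and each swim library lay below the lowest non-swim one (6-library adjusted p 0.0484). Myl7, the atrial light chain, was at 3.65, 7.13 and 11.5 CPM and 1.06, 0.749 and 0 CPM (adjusted p 0.0454), low levels throughout. Ces1d, a lipid-hydrolysing esterase, fell from 143, 153 and 109 CPM to 59.1, 33.5 and 45.7 CPM (log2 -1.55, adjusted p 0.0210). Prox1, a transcription factor of cardiomyocytes and lymphatic vessels, fell from 54.8, 77.6 and 50.6 CPM to 27.2, 12.5 and 26.6 CPM (log2 -1.47, adjusted p 0.0457). The matrix protein Spon2 fell from 20.2, 19.9 and 15.1 CPM to 6.38, 3.42 and 2.99 CPM (log2 -2.10, adjusted p 0.0210). With the cell marker balance as a covariate Spon2 was -2.88 and Acta1 -2.17, while Prox1 was -0.18 and Cacna1s -0.09. None was called with it (edgeR adjusted p 0.476, 0.561, 0.879 and 0.990).

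Acta1 and Myl7 belong to a list of 15 genes of the fetal programme, which pathological load is known to raise. Of these 13 were lower and 2 higher, 6 and 1 of them without overlap, against 18.7% and 12.5% of all genes, and the median was -0.42. The fetal myosin Myh7 was at 114, 3705 and 1425 CPM without and 1843, 60.03 and 56.6 CPM after swimming, a wide spread within each group. The atrial peptide Nppa was at 188, 731 and 448 CPM and 299, 161 and 157 CPM. Both overlapped between the groups and neither was called (6-library adjusted p 0.579 and 0.174).

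Genes of mitochondrial energy supply were nearly all lower after swimming, and 0 of them were called in the 12-library or the 6-library fit (edgeR). Of 78 nuclear respiratory chain genes 76 were lower, 24 without overlap, with a median log2 change of -0.41. All 78 mitochondrial ribosomal protein genes were lower, 38 without overlap, with a median of -0.33. All 19 citric acid cycle genes were lower, 16 without overlap, with a median of -0.62. Thus each of these lists pointed one way, where 18.7% of all genes were lower without overlap and 42.0% were higher at all. Fatty acid uptake and oxidation held 27 lower and 3 higher genes, 22 lower without overlap, and a median of -0.79. Glucose use held 22 lower and 3 higher genes, 13 lower without overlap, and a median of -0.46. At an unadjusted p under 0.05 the 12-library fit found 14, 30, 10, 17 and 5 lower genes in these 5 lists, in the order given. Over all 13158 genes it found 1584 lower. DESeq2 called 0, 1, 0, 3 and 1 genes of these lists lower over 12 libraries, against 2.45% of all genes. Over the 6 Des+/+ libraries it called 10, 3, 12, 18 and 5 lower, where 5.14% of all genes were called lower and 6.73% higher. Cpt2, which completes the entry of fatty acids into mitochondria, was at 181, 338 and 176 CPM without and 110.3, 91.2 and 115 CPM after swimming (log2 -1.14, 6-library adjusted p 0.0599). The complex I subunit Ndufs1 was at 686, 882 and 702 CPM and 459, 339 and 491 CPM (log2 -0.82, 6-library adjusted p 0.0677). Each swim library of both lay below the non-swim libraries.

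These medians moved with the cell markers. The respiratory chain, citric acid cycle and fatty acid medians were 0.07, 0.09 and -0.01 with the marker balance as a covariate over 12 libraries, while that of the mitochondrial ribosome was -0.13. Over 6 libraries they were 0.14, -0.13, 0.02 and -0.03. Cytosolic ribosomal protein genes ran the other way, with 71 of 79 higher and a median of 0.12. Of these 2 were higher without overlap, against 12.5% of all genes. Of 40 proteasome genes 34 were lower, and the immunoproteasome subunit Psmb8 was at 59.3, 40.9 and 45.3 CPM without and 68.6, 73.3 and 98.6 CPM after swimming, higher in each swim library without a call (6-library adjusted p 0.0659).

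**Figure D4:**
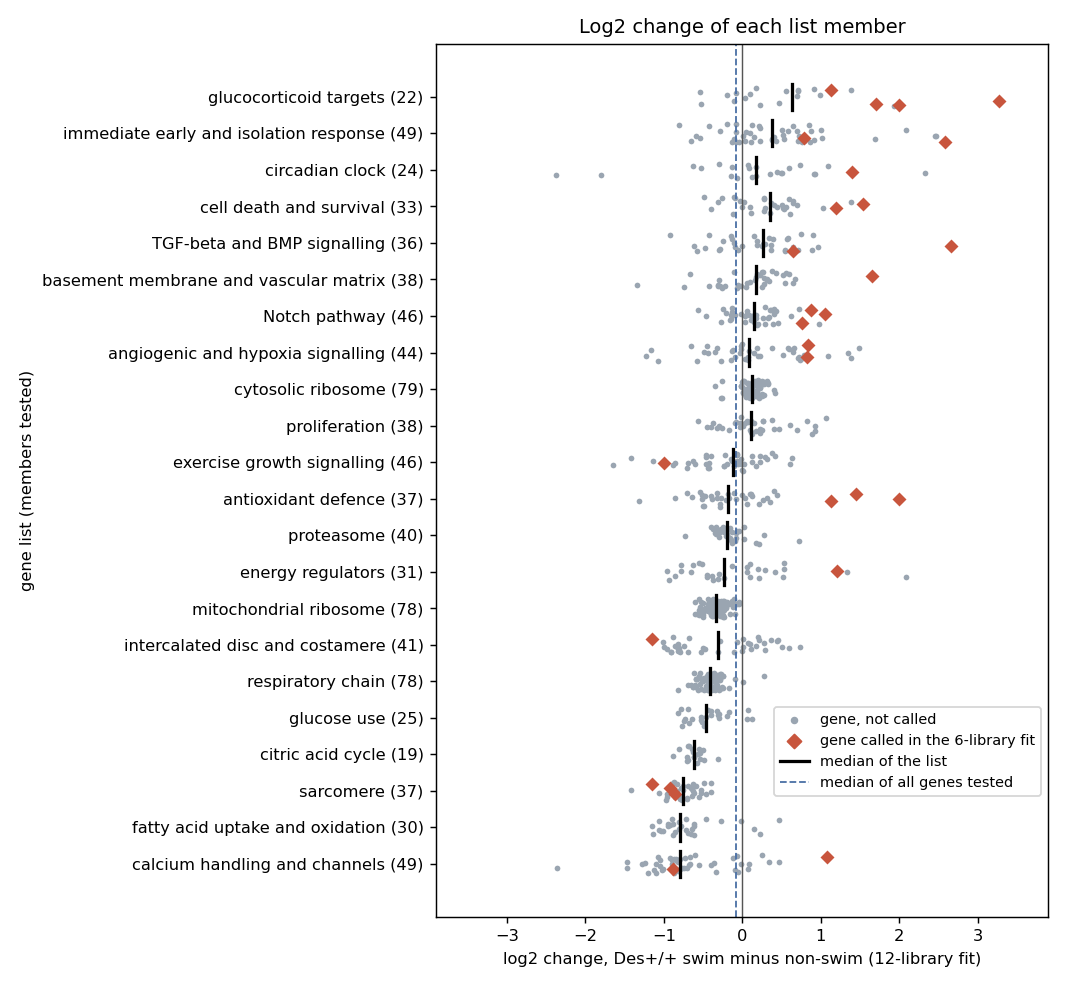
Log2 change with swimming in Des+/+ libraries (x axis, 12-library fit) of every tested member of 22 gene lists (y axis, number of members in brackets). Red diamonds are genes called in the 6-library fit, black bars list medians and the dashed line the median of all genes, -0.08. The glucocorticoid list has the highest median, 0.63, and the calcium handling list the lowest, -0.80.

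Growth signalling of the exercised heart was looked at by 46 genes, of which 13 were higher and 33 lower, with a median of -0.12. Gata4, a cardiac transcription factor, fell in the 6-library fit from 88.9, 141 and 106 CPM to 63.2, 50.2 and 55.2 CPM (log2 -0.99, adjusted p 0.0408). Akt2, a kinase of insulin signalling, was at 148, 198 and 154 CPM without and 116, 98.3 and 109 CPM after swimming. Cited4, a coactivator known from hearts trained by exercise, was at 12.02, 32.6 and 14.7 CPM and 7.56, 5.46 and 5.83 CPM. Both were lower in each swim library and neither was called (6-library adjusted p 0.0741 and 0.0612). The neuregulin receptor Erbb4, at 13.9, 14.5 and 7.49 CPM and 8.15, 5.56 and 8.25 CPM, and the Hippo pathway effector Yap1, at 187, 194 and 203 CPM and 170.1, 205 and 186 CPM, overlapped between the groups. Of 38 proliferation genes 0 were called in either edgeR fit. At an unadjusted p under 0.05 in the 12-library fit 3 were higher and 0 lower, against 1113 and 1584 of all 13158 genes. DESeq2 called 2 and 3 higher over 12 and 6 libraries, against 3.72% and 6.73% of all genes. The G1 cyclin Ccnd1 was at 325, 122 and 258 CPM and 448, 398 and 460.2 CPM, higher in each swim library (6-library adjusted p 0.112).

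Single genes of other lists passed the 6-library fit. Of 45 adrenergic genes 21 were higher and 24 lower, of 31 endocytic Rab5 genes 18 and 13, of 25 intermediate filament and nuclear envelope genes 18 and 7, and of 47 autophagy and lysosome genes 14 and 33. The angiotensin precursor Agt rose from 4.01, 7.13 and 5.32 CPM to 12.2, 14.8 and 23.3 CPM (log2 1.61, adjusted p 0.0388), and Rapgef3, a cAMP-activated exchange factor of adrenergic signalling, from 134, 109 and 134 CPM to 232, 267 and 212 CPM (log2 0.92, adjusted p 0.0299). Beside Rin3, its substrate family held Rab5c, which rose from 143, 117 and 148 CPM to 199.7, 219 and 246 CPM (adjusted p 0.0461). The related activator Rin1 was at 8.37, 10.5 and 9.02 CPM and 19.01, 15.1 and 15.5 CPM, without overlap and just short of a call (0.0512). Syne3, which encodes the nesprin that links intermediate filaments to the nucleus, rose from 7.19, 11.7 and 10.4 CPM to 28.7, 19.3 and 21.2 CPM (log2 1.24, adjusted p 0.0360). Mitf, a regulator of lysosome genes, fell from 45.5, 54.5 and 45.7 CPM to 29.1, 22.6 and 25.3 CPM (log2 -0.92, adjusted p 0.0327).

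The Des-/- libraries gave the same comparison in mice without desmin, with no library shared. Of the 227 genes that rose in Des+/+ libraries by the 6-library fit, 182 (80.2%) were also higher after swimming in Des-/- libraries, and of the 55 that fell 30 (54.5%) were also lower, where 52.3% of all genes had the same sign in both. The median change of the 227 was 0.95 in Des+/+ and 0.30 in Des-/- libraries, and that of the 55 was -1.08 and -0.02. The genes were chosen on the Des+/+ values, so only the Des-/- values are independent of the choice. Ercc1 and Pparg had nearly the same change in both, 1.36 and 0.98 in Des-/- libraries, and were called there as well (12-library fit, adjusted p 0.00567 and 0.0420). Same-numbered Des-/- libraries deviated together, but so did replicates 1 and 2 across numbers, so pairs are not shown. With the replicate number as a block the genes called in Des-/- libraries went from 3 to 84 (edgeR). Ercc1 and Pparg were still called (adjusted p 0.0335 and 0.0369). Tinagl1 was at 1.06, Rin3 at 0.25, Nab2 at -0.14 and Rhbdf2 at -0.02.

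The difference between genotypes was tested as an interaction in the 12-library fit, which called 0 genes (edgeR, 2148 at an unadjusted p under 0.05, 16.3%, and 328 by DESeq2). For Nab2 the interaction was -1.36 and for Rin3 -1.30 on the log2 scale (adjusted p 0.174 and 0.199). For Notch1 it was -0.86 (adjusted p 0.199), with 285 ± 43.8 CPM (SD, n = 3) without and 266 ± 37.8 CPM (SD, n = 3) after swimming in Des-/- libraries. Myl7 and Hbb-bs had opposite signs in the 2 genotypes, with changes of 1.55 and -1.07 in Des-/- libraries, and their interactions were not called (adjusted p 0.199 and 0.199). In Des-/- libraries Agt rose from 1.24 ± 0.0949 CPM to 16.1 ± 5.49 CPM (SD, n = 3, log2 3.69, adjusted p 0.00567), with an interaction of 2.08 (adjusted p 0.199).

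**Figure D5:**
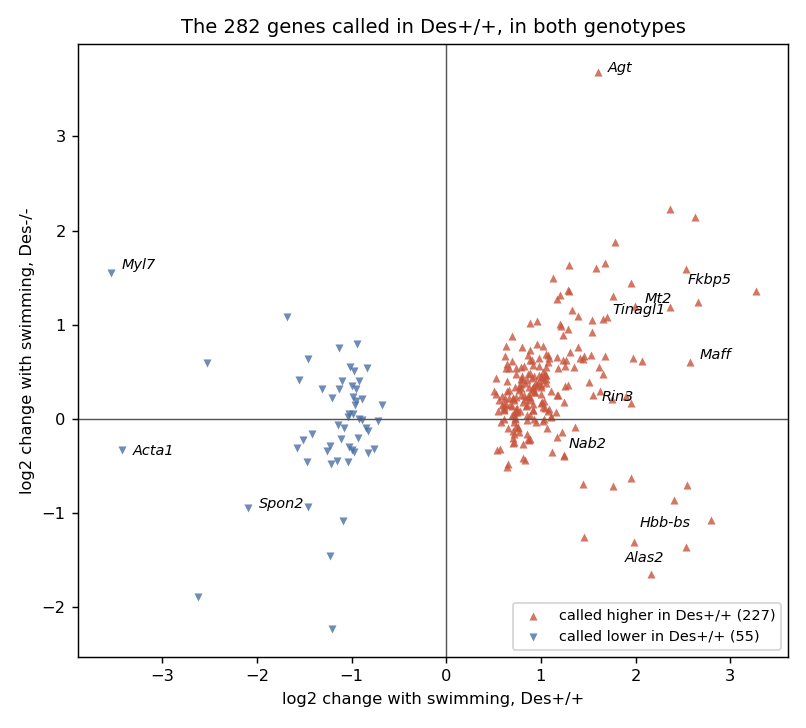
Log2 change with swimming in Des+/+ (x axis) and Des-/- libraries (y axis), both from the 12-library fit, for the 282 genes called in the 6 Des+/+ libraries, 227 higher (red upward triangles) and 55 lower (blue downward triangles). Most red points lie above 0 on the y axis, the blue points lie on both sides of it, and Hbb-bs and Alas2 lie below 0 while Myl7 lies above.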

How the data were processed

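RNA of cardiomyocyte preparations was sequenced in 12 libraries, 3 in each of 4 groups, and the deposited files hold raw counts per gene that the authors made with HISAT2 2.2.1, SAMtools 1.13 and HTSeq on GRCm38, counting by strand. The annotation used for counting is not given in the sources used here. The library kit differs between the sample labels and the study's methods. Rows that name no gene were left out of library sizes and tests, and are described as shares of reads. Of 21493 genes, 21488 were matched to GENCODE for position and type.

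Counts were scaled by TMM and tested with edgeR 4.0.16 (R 4.3.3) by the quasi-likelihood test and Benjamini-Hochberg adjustment at 0.05, with 4 group means over 12 libraries (8 residual degrees of freedom) and, as an alternative, over the 6 Des+/+ libraries (4 degrees). Genes with too few reads in the smallest group were filtered by filterByExpr, leaving 13158 and 12548. DESeq2 1.42.0, other scalings, other filters, a replicate block, length and GC offsets and leaving out each library were tried. Covariates from Y-linked genes and from cell markers were added after the data were seen. The tests were also tried on simulated counts with known changes, all drawn with the gene-wise spread of the 12-library fit. In the real data the common biological coefficient of variation was 0.271 over 12 and 0.202 over the 6 Des+/+ libraries. The simulated 6-library recoveries therefore need not hold for the real 6-library fit. Of 100 genes changed by a log2 of 1, edgeR recovered 51 over 12 and 33 over 6 libraries, and DESeq2 71 and 65. Of 100 changed by a log2 of 2, edgeR recovered 96 and 94, and DESeq2 97 and 96. Of 12882 and 12340 unchanged genes edgeR called 8 and 9 and DESeq2 44 and 45, so DESeq2 made more false calls there. Nothing says that replicates came from separate cell isolations on different days, so p-values measure the spread between these pools.

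Named were all genes called in the 12-library fit, the 12 largest rises and falls called in the 6-library fit with a mean count of at least 20, called and leading members (4 by p) of each gene list, genes that define a list, and 6 genes the study follows. A gene that met this rule is not reported here. Members and lists were chosen with earlier results of these data known. Read intervals and the floor of 3 counts cover counting error only. Same-numbered Des+/+ libraries did not deviate together (r of -0.41, -0.26 and 0.01), so numbers were not taken as pairs there. Those of the Des-/- libraries did (r of 0.36, 0.32 and 0.60), but replicates 1 and 2 did so across numbers as well (r of 0.29 and 0.30). Replicate 3 went against both (r of -0.47 to -0.41). Its Y-linked level also stood apart, at 5.14 and 5.51 against -2.07 to -1.35 (mean log2 CPM). Pairing by number is thus not shown there either. The Des-/- libraries also enter the 12-library fit.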

Additional observations from a re-analysis of the deposited data

Results flagged for a closer look

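Reads outside genes were not part of the gene comparisons, and their share differed with swimming. Of reads aligned to a single place, those outside annotated genes made up 36.4% without and 47.8% after swimming (means of 3 libraries, 33.97% to 39.3% and 45.9% to 50.4%), above the level in the non-swim libraries. The share of alignments that were not unique was 24.3% ± 1.27 (SD, n = 3) without and 30.4% ± 1.40 (SD, n = 3) after swimming. Of all alignments, those in no gene were 5.72 percentage points higher after swimming. The exact two-sided permutation p of each was 0.1, the smallest the design allows.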

How the results depend on the processing

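The number of genes called for swimming depended on the fit. Against 12 genes in the 12-library fit, the 6 Des+/+ libraries alone gave 282, DESeq2 gave 812 over 12 and 1490 over 6 libraries, and a filter with the study's log2 threshold of 0.6, an unadjusted p up to 0.05 and a mean count of at least 20 gave 1358 (562 higher, 796 lower). Median-ratio size factors gave 54, no filter on low counts 58, a mean of at least 20 counts 30, and length and GC offsets 7, while upper-quartile scaling again gave 12. With the replicate number as a block the 12-library fit called 34 genes, 10 of the 12 among them, and the 6-library fit 15, 14 of the 282 and 0 of the 12 among them. The Y-linked covariate, chosen after seeing the data, gave 257 over 12 libraries, all 12 included, and 13 over 6, with 0 of the 12, and the cell marker covariate 0 in both. Leaving out a library gave 0 to 155 genes in the 12-library fit, with 7 and 155 without Des-/- non-swim replicates 2 and 3 and 27, 4 and 95 without Des-/- swim replicates 1 to 3, and 0 to 178 in the 6-library fit. The interaction called 0 genes by edgeR and 328 by DESeq2.

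The log2 change of Yap1 turned to 0.014 over the 6 libraries by edgeR and by DESeq2 and to 0.010 there with the block, and ran from -0.13 to 0.0068 over the left-out libraries. That of Notch3 turned to -0.080 with length and GC offsets and ran from -0.063 to 0.13. That of Adipoq ran from -1.66 to 1.57, positive without non-swim replicate 3. The cause was not tested. With 3 pools a group, a gene not called may still differ.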

Other observations

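Chromatin regulators, 41 of 65 higher and 24 lower, held 16 higher and 5 lower genes without overlap between the groups, where 12.5% of all genes were higher and 18.7% lower in this way. Of 51 DNA repair genes 15 were higher and 36 lower, with 14 lower and 4 higher without overlap, against the same 18.7% and 12.5%. Of 36 heat shock and chaperone genes 18 were higher and 18 lower, and of 37 genes of the ER and integrated stress response 25 and 12. Lymphocyte marker sums were 8.96, 7.83 and 8.21 CPM without and 6.14, 6.53 and 7.40 CPM after swimming, low in all 6 libraries.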
